A study of Mus musculus with 45 samples.

Results

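Aminoacyl-tRNA synthetases join each amino acid to its own transfer RNA, the step that supplies the ribosome with charged tRNA. Members of the family were taken by gene symbol: every listed gene named for an amino acid letter followed by ars, with or without the endings 1, 2, l or l2, plus Eprs, Farsa, Farsb and the scaffold genes Aimp1, Aimp2 and Eef1e1. The rule used no measured value and found 41 of the 28454 genes listed. They comprise 18 enzymes of the cytosol, 17 enzymes of the mitochondrion, Gars and Kars, which each serve both compartments, Tarsl2 and the 3 scaffold proteins. Symbols ending in 2 were read as mitochondrial, with 2 exceptions among the 19 such names: Aimp2 is a scaffold protein, and Tarsl2 encodes a second threonyl-tRNA synthetase that is known from the cytosol and is described apart.

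Cytosolic and mitochondrial protein synthesis use separate sets of these enzymes, nearly all encoded by separate nuclear genes. When a cell lacks an amino acid, uncharged tRNA activates the kinase GCN2 (Eif2ak4), which phosphorylates the initiation factor eIF2, and translation of the transcription factor ATF4 then rises. Genes of amino acid transport, amino acid synthesis and several cytosolic synthetases are known targets of ATF4, which binds, with C/EBP partners, to amino acid response elements.

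RNA was sequenced from mouse mammary tumour cell lines grown in DMEM:F12 with serum, insulin, hydrocortisone and EGF, with 3 cultures in each of 15 groups. MYAZ16.1e, MYAZ12.3i and MYAZ6.6g were derived from mammary tumours of MMTV-cMYC mice, in which the mammary tumour virus promoter drives the MYC transgene, and Myc310 is a single line from a tumour of an MMTV-MYC mouse that carried several. LM1, LM2 and LM3 were recovered from lungs after Myc310 cells were injected into the mammary fat pad, and LM1-LM, LM2-LM and LM3-LM from lungs after LM1 cells were injected, so 7 of the 10 lines descend from 1 tumour. All 10 lines, and MYAZ12.3i-NDI1, a derivative of MYAZ12.3i whose label adds NDI1 (the name of a yeast NADH dehydrogenase), were sampled in control medium. MYAZ16.1e, Myc310, LM1 and LM1-LM were also sampled after 6 h in medium without cysteine and cystine.

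The 45 libraries, 33 in control medium and 12 deprived, held 19517859 to 29019988 gene counts (median 22899900), and the lowest count of any member in any library was 116. The 3 cultures of a group are called technical replicates in the series description, so p-values from cultures measure the spread between these cultures, which may be technical. Tests over line sums or line means rest on the spread between lines. Fewer cells of a type and less RNA per cell cannot be told apart in bulk RNA. Myc, the gene the transgene carries, had group means of 421 to 1334.9 CPM (counts scaled to a common library total after TMM normalization). The epithelial keratins Krt8 (group means 219 to 1704.2 CPM) and Krt18 (99.0 to 546 CPM) were present in every group, whereas group means of the epithelial adhesion genes Epcam, Cdh1, Cldn3, Cldn4 and Cldn7 did not exceed 0.673 CPM, so the epithelial label rested on keratins alone. The 8 fibroblast markers summed to 1.73 to 217 CPM over libraries, led by Col3a1, Pdgfra and Pdgfrb, while Dcn, Lum and Thy1 stayed at or near 0. The 5 endothelial markers summed to at most 7.08 CPM and the 4 alveolar markers to at most 6.63 CPM.

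Message levels were first compared between members per kilobase of exon in control medium. The length was that of 1 transcript a gene, the longest coding one marked principal in the annotation. It was 11294 bases for Mars2, the mitochondrial methionine enzyme, which had the lowest level. The 20 cytosolic and dual enzymes had means over the 10 lines of 32.3 to 180 CPM per kb (median 66.0), and the 17 mitochondrial enzymes 2.64 to 31.1 CPM per kb (median 9.81). Within single lines the ranges overlapped in 6 of 10, as in MYAZ12.3i, where Lars2 had 39.2 and Cars 27.1 CPM per kb. The lysine enzyme Kars was highest at 180 ± 15.5 CPM per kb (SD over lines, n = 10), followed by the asparagine enzyme Nars at 158 ± 12.7 and the glycine enzyme Gars at 153 ± 15.6, whose line values overlapped. Cars, the cysteine enzyme, had the lowest level of the cytosolic set, 32.3 ± 3.91 CPM per kb, next to the mitochondrial leucine enzyme Lars2 at 31.1 ± 5.93 CPM per kb. The Lars2 mean includes the high control cultures of MYAZ16.1e and Myc310 given below, and the mitochondrial Yars2 was close to it at 29.1 ± 2.89 CPM per kb. Tarsl2 stood at 6.31 ± 2.35 CPM per kb, within the mitochondrial range, and the 3 scaffold genes at 28.0 to 69.3 CPM per kb. All 41 members together took 0.544% to 0.601% of counts, as group means, in control medium.

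Cysteine deprivation raised the messages of most cytosolic synthetases and lowered those of many mitochondrial ones. Summed over the 20 cytosolic and dual enzymes, the level of MYAZ16.1e was 4572.6 ± 26.8 CPM in control medium and 8709.4 ± 84.1 CPM after deprivation (SD, n = 3), and that of Myc310 4498.9 ± 40.2 and 10747.7 ± 101 CPM. LM1 went from 4609.7 ± 39.0 to 12008.1 ± 118 CPM, and its derivative LM1-LM from 4733.1 ± 34.4 to 12184.9 ± 74.8 CPM. In the same order of lines, the sum over the 17 mitochondrial enzymes was 700 ± 71.4, 771 ± 86.3, 736 ± 13.7 and 746 ± 10.1 CPM in control medium and 615 ± 10.7, 638 ± 15.2, 593 ± 7.04 and 572 ± 5.97 CPM after deprivation. Without 1 control culture each with a high level of Lars2, the control sums were 659 CPM in MYAZ16.1e and 721 CPM in Myc310 (n = 2 each). The share of all counts on the 41 members after deprivation was 0.98%, 1.14%, 1.2% and 1.2%, in the same order.

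Calls were made with edgeR's quasi-likelihood test at a Benjamini-Hochberg adjusted p under 0.05 over 13400 genes, in one model of the 8 groups. In MYAZ16.1e 18 members were higher and 12 lower after deprivation, where 26.6% and 27.1% of all genes tested were. Myc310 had 22 higher and 16 lower members, against 32.8% and 33.9% of genes. For LM1 the counts were 20 and 14 (35.8% and 35.3% of genes), and for LM1-LM 20 and 13 (36.5% and 35.9% of genes). These calls split by compartment. Of the 20 cytosolic and dual enzymes, 16 were higher, 3 lower and 1 not called in each of the 4 lines, with median log2 fold changes, from MYAZ16.1e to LM1-LM in the same order, of 1.11, 1.32, 1.52 and 1.53, beside medians within 0.01 of 0 over all genes. The 17 mitochondrial enzymes had 2, 5, 4 and 4 higher and 7, 11, 9 and 8 lower, with medians of −0.10, −0.28, −0.27 and −0.22. The 2 higher in MYAZ16.1e became 1 without replicate 1, 2 or 3, and the 5 in Myc310 became 3 without replicate 3. A rise of over 2-fold was called for 12, 12, 13 and 12 of the cytosolic and dual enzymes and for 0 of the mitochondrial ones, against 3.78%, 6.93%, 9.06% and 9.76% of all genes. In all 4 lines 17 members were higher (19.3% of genes) and 11 lower (19.0% of genes).

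**Figure D1:**
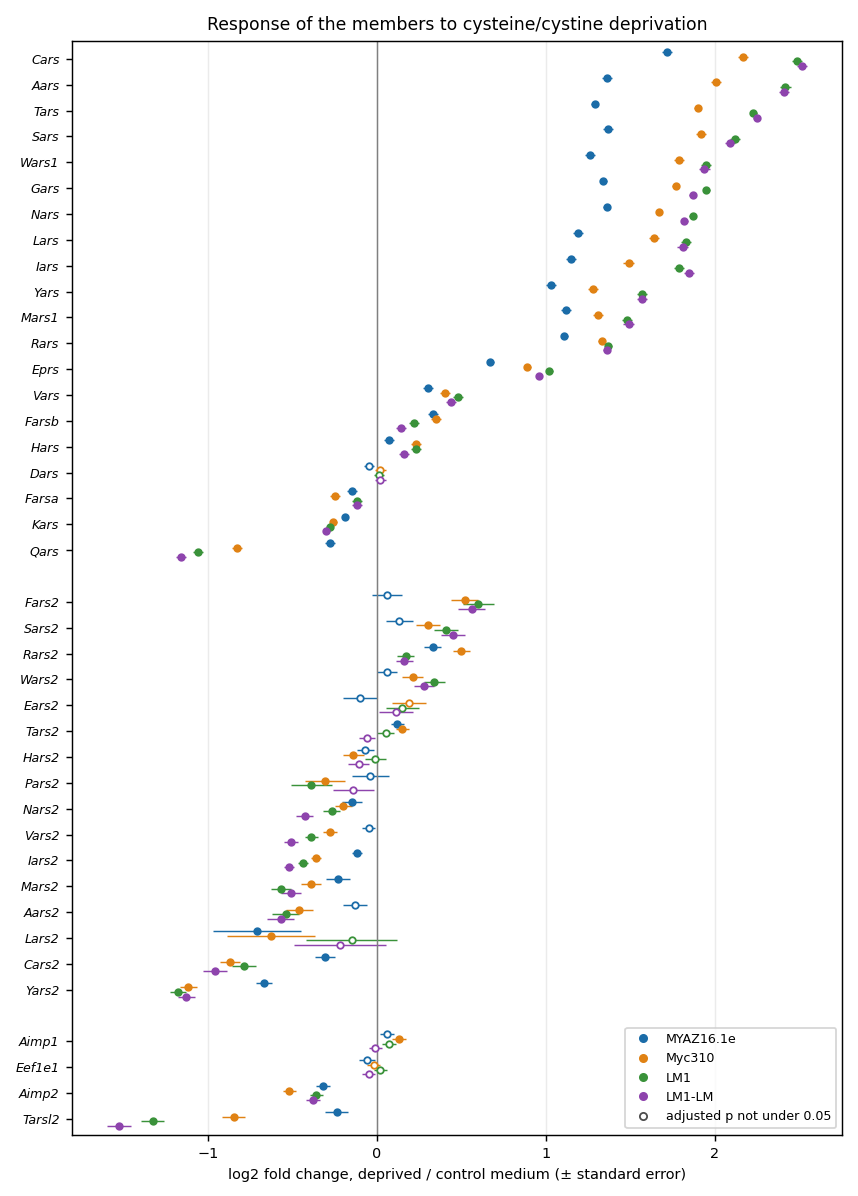
Log2 fold change (deprived over control, horizontal axis) of 40 members in the 4 deprived lines, with bars of 1 standard error, ordered by class. Filled points have an adjusted p under 0.05 (edgeR) and open points do not. Cytosolic members reach 1.72 to 2.52 for Cars, whereas no mitochondrial member exceeds 0.60.

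Cars and Cars2 charge tRNA with the amino acid that was withdrawn, in the cytosol and in the mitochondrion. Cars (chromosome 7, 143557230 to 143600090, minus strand, GRCm38) had 91.5, 92.4 and 94.6 CPM in the control cultures of MYAZ16.1e and 307, 304 and 310 CPM in the deprived ones. In Myc310 the cultures had 98.4, 99.2 and 97.2 CPM before and 436, 454 and 448 CPM after. LM1 had 98.3, 94.4 and 96.6 CPM in control medium and 519, 528 and 543 CPM without cysteine. Control levels of Cars lay between 91.5 and 100.0 CPM in all 4 lines, while deprived levels ran from 304 to 561 CPM. LM1-LM had 98.7, 98.8 and 100.0 CPM in control medium and 545, 561 and 550 CPM when deprived. The log2 fold changes were 1.72, 2.17, 2.49 and 2.52 (SE 0.03 each), folds of 3.29, 4.50, 5.64 and 5.72, with adjusted p of 4.13e-30, 7.45e-33, 1.65e-34 and 1.1e-34, and media did not overlap in any line. Cars had the highest mean log2 fold change of all 41 members.

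Cars2 (chromosome 8, 11513977 to 11550783, minus strand) moved the other way. MYAZ16.1e had 28.5, 30.7 and 31.9 CPM of Cars2 in control medium and 24.6, 25.6 and 23.6 CPM when deprived. In Myc310 the values were 28.2, 26.4 and 27.6 CPM in control medium and 13.8, 15.2 and 16.3 CPM in deprived cultures. Each deprived culture lay below each control culture of its line. LM1 went from 26.3, 26.2 and 26.3 CPM to 15.8, 14.7 and 14.2 CPM, and LM1-LM from 24.1, 26.8 and 25.2 CPM to 13.0, 12.2 and 12.9 CPM. The log2 fold changes were −0.31 ± 0.06, −0.87 ± 0.06, −0.79 ± 0.07 and −0.96 ± 0.07 (SE), with adjusted p of 4.91e-05, 3.54e-13, 4.45e-12 and 5.14e-14. Exons of Cars2 share 422 bases with Naxd on the other strand, and the strand setting of the counting is not given in the sources used here.

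**Figure D2:**
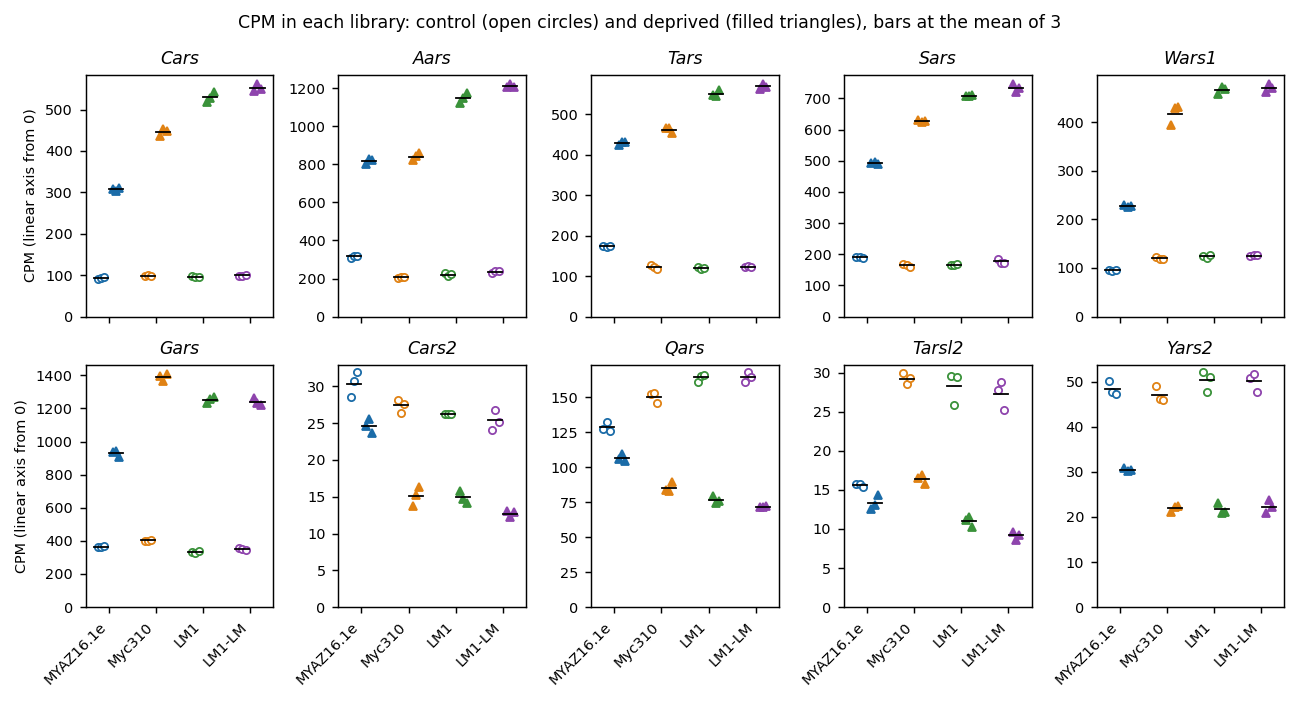
CPM (linear axes from 0) of 10 members in the 24 libraries of the 4 deprived lines. Open circles are control cultures, filled triangles deprived cultures and bars the mean of 3 cultures, and in each panel no deprived culture overlaps the control cultures of its line.

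The other cytosolic enzymes with the largest rises charge alanine, threonine, serine, tryptophan and glycine. Aars, the alanine enzyme (chromosome 8, 111033144 to 111057664, plus strand), had 310, 320 and 319 CPM in control MYAZ16.1e cultures and 804, 826 and 821 CPM in deprived ones. Myc310 had 204, 206 and 210 CPM of Aars in control medium and 823, 842 and 859 CPM when deprived. The deprived levels of both lines overlapped although the control levels did not. LM1 had 227, 213 and 223 CPM before and 1125, 1150 and 1172.9 CPM after, and LM1-LM 227, 238 and 238 CPM before and 1205.3, 1221.5 and 1208.9 CPM after. The log2 fold changes were 1.36, 2.01, 2.42 and 2.41 (SE 0.03), with adjusted p of 1.92e-27, 8.19e-32, 7.63e-34 and 5.91e-34.

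Aars shares 1326 exon bases on the same strand with Exosc6, a subunit gene of the RNA exosome, so the split of reads between the pair is uncertain. Exosc6 had 361 to 1027 counts in each of the 33 control libraries and 0 counts in each of the 12 deprived libraries, in which Aars was high. The log2 ratio of mean CPM was 1.37, 2.02, 2.38 and 2.37 for Aars alone and 1.22, 1.81, 2.20 and 2.18 with the Exosc6 counts added. Which part of those counts belongs to either gene was not tested.

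Tars, the cytosolic threonine enzyme (chromosome 15, 11382301 to 11399665, minus strand), had 174, 173 and 175 CPM in control MYAZ16.1e and 425, 430 and 430 CPM after deprivation. The Myc310 cultures had 127, 122 and 117 CPM in control medium and 467, 465 and 454 CPM without cysteine. Control levels were again higher in MYAZ16.1e than in Myc310, and deprived levels lower. For LM1 the values were 123, 118 and 121 CPM and then 547, 546 and 560 CPM, and for LM1-LM 122, 124 and 123 CPM and then 563, 575 and 568 CPM. Folds were 2.45, 3.74, 4.70 and 4.75, or log2 fold changes of 1.29, 1.90, 2.23 and 2.25 (SE 0.02), all with an adjusted p of 6.72e-28 or less.

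Sars, the cytosolic serine enzyme (chromosome 3, 108424865 to 108445209, minus strand), had 191, 192 and 187 CPM in control MYAZ16.1e and 494, 497 and 490 CPM in deprived cultures. Myc310 gave 168, 166 and 158 CPM of Sars and then 630, 624 and 628 CPM. The LM1 values were 167, 164 and 169 CPM in control medium and 707, 706 and 710 CPM when deprived. No deprived culture overlapped a control culture. LM1-LM gave 186, 173 and 171 CPM and then 747, 719 and 732 CPM. The log2 fold changes of Sars were 1.37, 1.92, 2.12 and 2.09 (SE 0.03), with an adjusted p of 2.78e-27 or less.

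Wars1, the cytosolic tryptophan enzyme (chromosome 12, 108860030 to 108894174, minus strand), had 95.9, 93.4 and 95.2 CPM in control MYAZ16.1e and 230, 225 and 227 CPM when deprived. Its levels were 122, 118 and 119 CPM in control Myc310 and 394, 429 and 431 CPM in deprived Myc310. Media stayed apart here too. LM1 had 124, 121 and 127 CPM and then 458, 473 and 469 CPM, while LM1-LM had 124, 126 and 127 CPM and then 463, 479 and 471 CPM. The log2 fold changes were 1.26, 1.79, 1.95 and 1.94 (SE 0.03), with an adjusted p of 9.77e-25 or less.

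Gars, which serves cytosol and mitochondrion (chromosome 6, 55038007 to 55079500, plus strand), had 365, 361 and 371 CPM in control MYAZ16.1e and 936, 942 and 907 CPM when deprived. Among the 4 deprived lines Myc310 had the highest Gars levels in both media, 402, 398 and 407 CPM and then 1397.2, 1364.5 and 1407.5 CPM. The levels in LM1 were 333, 328 and 336 CPM and then 1233.0, 1255.9 and 1268.1 CPM. Gars therefore rose past 2-fold in each of these lines without overlap. LM1-LM had 355, 349 and 342 CPM before and 1260.8, 1232.7 and 1222.9 CPM after. Log2 fold changes were 1.34, 1.77, 1.95 and 1.87 (SE 0.02), with an adjusted p of 9.82e-29 or less. Kars, the other dual enzyme, fell by 0.19, 0.26, 0.28 and 0.30 on the log2 scale, and in LM1-LM it had 372 ± 6.27 CPM in control and 295 ± 5.21 CPM in deprived cultures (SD, n = 3).

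Of the remaining cytosolic enzymes, Nars, Lars, Iars, Mars1, Rars and Yars, which charge asparagine, leucine, isoleucine, methionine, arginine and tyrosine, had log2 fold changes between 1.03 (Yars in MYAZ16.1e) and 1.87 (Nars in LM1). Eprs, which charges glutamate and proline from one polypeptide, rose from 441 ± 9.62 to 703 ± 0.594 CPM in MYAZ16.1e and from 568 ± 18.4 to 1127.0 ± 15.9 CPM in LM1. Smaller changes were found for Vars, the valine enzyme, at 0.30, 0.40, 0.48 and 0.44, and for Hars, the histidine enzyme, at 0.07, 0.23, 0.23 and 0.16. The Hars call in MYAZ16.1e (166 ± 6.45 against 175 ± 7.04 CPM, adjusted p = 0.0492) was made with overlapping cultures and was lost with RLE scaling and in DESeq2. Mars1 shares 68 exon bases with Ddit3 on the other strand, which rose from 2.00 to 59.0 CPM in LM1. The log2 ratio of mean CPM was 1.13, 1.32, 1.44 and 1.45 for Mars1 alone and 1.31, 1.52, 1.63 and 1.62 with Ddit3 added.

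Cytosolic enzymes that did not rise were Dars, Farsa, Qars and Kars. Dars, the aspartate enzyme, had 136 ± 0.86 and 132 ± 5.5 CPM in MYAZ16.1e and 157 ± 0.876 and 155 ± 1.97 CPM in LM1-LM, with log2 fold changes between −0.05 and 0.02, none of them called. Farsa and Farsb encode the alpha and beta chains of one phenylalanine enzyme, and only Farsb was higher. In Myc310 Farsa went from 127 ± 1.77 to 108 ± 2.71 CPM while Farsb went from 115 ± 0.964 to 147 ± 1.64 CPM, and over the 4 lines Farsa fell by 0.12 to 0.25 on the log2 scale and Farsb was higher by 0.14 to 0.35. The Farsb call in LM1-LM was lost with upper-quartile scaling.

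Qars, the glutamine enzyme (chromosome 9, 108507706 to 108515941, plus strand), had the largest fall of the 20 cytosolic and dual enzymes. MYAZ16.1e had 127, 132 and 126 CPM of Qars in control medium and 106, 109 and 104 CPM when deprived. In Myc310 it was 152, 153 and 146 CPM and then 83.4, 82.9 and 89.6 CPM. These falls left no overlap between media. LM1 had 161, 165 and 166 CPM and then 79.5, 74.3 and 75.6 CPM, and LM1-LM 161, 168 and 164 CPM and then 71.5, 71.6 and 72.4 CPM. Log2 fold changes were −0.28, −0.83, −1.06 and −1.16 (SE 0.03), with adjusted p of 1.27e-08, 5.37e-20, 9.76e-23 and 1.08e-23.

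Tarsl2 (chromosome 7, 65644898 to 65692091, plus strand) fell while its relative Tars rose. In MYAZ16.1e it had 15.8, 15.7 and 15.4 CPM in control medium and 12.5, 13.1 and 14.3 CPM when deprived. In Myc310 it had 29.9, 28.5 and 29.3 CPM and then 16.5, 16.9 and 15.7 CPM. The fall was smallest in the line with the lowest control level. LM1 had 29.6, 25.9 and 29.5 CPM and then 11.1, 11.5 and 10.3 CPM, and LM1-LM 27.8, 28.8 and 25.2 CPM and then 9.63, 8.62 and 9.26 CPM. Log2 fold changes were −0.24, −0.85, −1.33 and −1.53 (SE 0.07), with adjusted p of 0.00672, 1.24e-12, 9.75e-17 and 4.31e-18. Without replicate 1 the MYAZ16.1e value was −0.19 with an adjusted p of 0.119. Tarsl2 shares 120 exon bases on the same strand with Tm2d3, whose log2 fold changes were −0.27, −0.47, −0.62 and −0.64. The log2 ratio of mean CPM was −0.23, −0.84, −1.37 and −1.57 for Tarsl2 alone and −0.25, −0.68, −1.06 and −1.16 with Tm2d3 added.

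Among mitochondrial enzymes Yars2, the tyrosine enzyme (chromosome 16, 16302965 to 16309640, plus strand), had the lowest mean log2 fold change. Control MYAZ16.1e cultures had 50.2, 47.7 and 47.2 CPM of Yars2 and deprived ones 30.9, 30.1 and 30.4 CPM. For Myc310 the values were 49.0, 46.1 and 46.0 CPM and then 21.2, 22.1 and 22.5 CPM. All deprived cultures lay below all control cultures. LM1 had 52.1, 47.7 and 51.0 CPM and then 23.1, 20.8 and 21.2 CPM, and LM1-LM 50.8, 51.6 and 47.8 CPM and then 20.9, 23.8 and 22.2 CPM. The log2 fold changes were −0.67, −1.12, −1.18 and −1.13 (SE 0.05), with adjusted p of 9.15e-13, 5.16e-18, 1.06e-18 and 1.55e-18.

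Besides Cars2 and Yars2, the mitochondrial isoleucine, methionine and asparagine enzymes Iars2, Mars2 and Nars2 were lower in all 4 lines, although the Nars2 call in MYAZ16.1e was lost in DESeq2 (adjusted p = 0.0548). Their log2 fold changes lay between −0.12 (Iars2 in MYAZ16.1e) and −0.57 (Mars2 in LM1). Iars2 shares 2034 exon bases on the other strand with Rab3gap2, whose log2 fold changes were 0.21, 0.50, 0.67 and 0.64. Aars2 and Vars2 were not called in MYAZ16.1e (−0.13 and −0.05) and were lower in Myc310, LM1 and LM1-LM, by up to 0.57 and 0.51 on the log2 scale. Fars2, Sars2 and Wars2 went the other way, with values not called in MYAZ16.1e and calls of 0.52, 0.60 and 0.56 for Fars2 in Myc310, LM1 and LM1-LM. Fars2 shares 115 exon bases on the other strand with Lyrm4, whose log2 fold changes were 0.07, 0.26, 0.56 and 0.57. The part of shared reads in Iars2 and Fars2 was not tested. Rars2, the arginine enzyme, was the mitochondrial member higher in all 4 lines (0.33, 0.50, 0.17 and 0.16), with 31.6 ± 1.1 and 45.1 ± 0.505 CPM in Myc310. Its cultures overlapped between media in LM1-LM (32.1 ± 2.63 and 35.0 ± 0.883 CPM), and its LM1 and LM1-LM calls were lost with upper-quartile scaling. Of the others, Pars2, the proline enzyme, was lower in Myc310 and LM1 (−0.31 and −0.39) and Hars2, the histidine enzyme, in Myc310 (−0.14, with overlapping cultures and lost in DESeq2 at an adjusted p of 0.0552). Tars2, the threonine enzyme, was higher in MYAZ16.1e and Myc310 (0.12 and 0.15), and Ears2, the glutamate enzyme, was not called in any of the lines.

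Lars2, the mitochondrial leucine enzyme (chromosome 9, 123366927 to 123462666, plus strand), had 1 high control culture in each of 2 lines. Control MYAZ16.1e had 209, 88.7 and 84.0 CPM and deprived MYAZ16.1e 79.3, 81.7 and 70.5 CPM. Myc310 had 87.6, 245 and 98.9 CPM in control medium and 85.6, 92.2 and 103 CPM when deprived. The ribosomal RNA-like transcript Gm42418 was also highest in those cultures, at 735 CPM against 499 and 519 CPM in control MYAZ16.1e and at 1688.1 CPM against 435 and 462 CPM in control Myc310, and its part in the result was not tested. The log2 fold change of Lars2 was −0.71 (SE 0.26, adjusted p = 0.0245) in MYAZ16.1e with all cultures and −0.17 (adjusted p = 0.0372) without both high libraries. In Myc310 it was −0.63 with all cultures and −0.01 (adjusted p = 0.938) without them. Lars2 was not called in LM1 and LM1-LM with all libraries, and without the high libraries these lines gave −0.14 (adjusted p = 0.0443) and −0.22 (adjusted p = 0.00188). Both lines were also called lower with the 6 libraries of the line alone. The fit with no filter called them too, but it gave MYAZ16.1e an adjusted p of 9.6e-78 despite its high culture. Without both high libraries the counts of cytosolic and dual enzymes called were the same. Those of lower mitochondrial enzymes were then 6, 9, 10 and 9, and that of higher ones in MYAZ16.1e was 1 in place of 2.

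**Figure D3:**
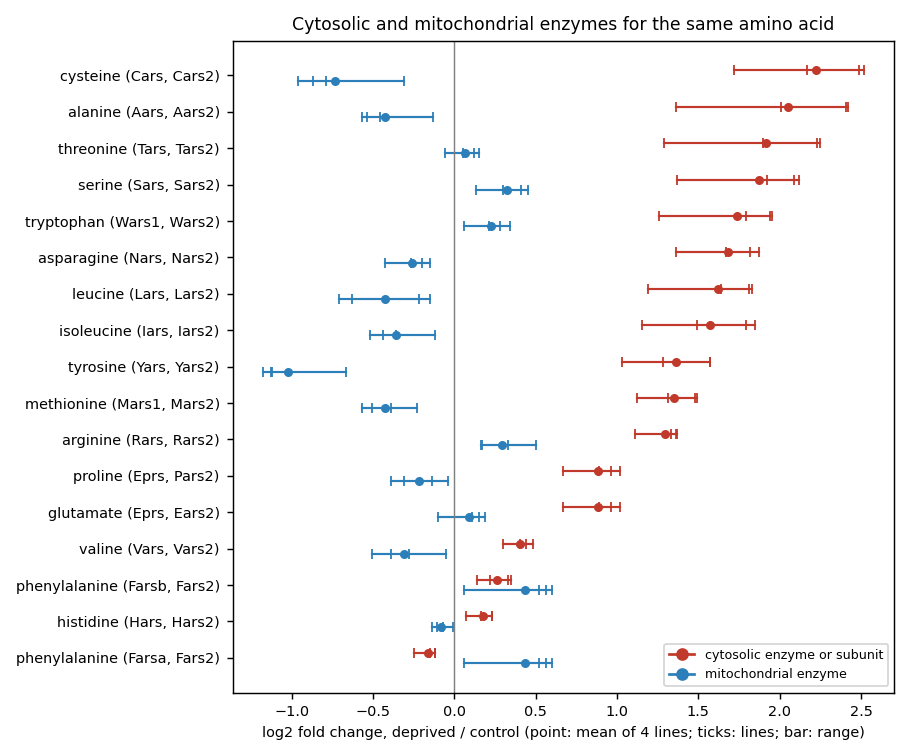
Mean log2 fold change over the 4 deprived lines of the cytosolic and the mitochondrial enzyme of 17 pairs for 1 amino acid, with ticks for single lines and a line for their range. The cytosolic mean lies above the mitochondrial one except in the pairs of Farsa with Fars2 and of Farsb with Fars2. Farsb lies below Fars2 in 3 lines and in the mean (0.26 and 0.43).

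The 18 pairs of enzymes for the same amino acid were set side by side. The cytosolic log2 fold change exceeded the mitochondrial one in 17 pairs in MYAZ16.1e and in 16 pairs in each of Myc310, LM1 and LM1-LM. The cysteine pair had differences of 2.03, 3.04, 3.28 and 3.47, and the alanine pair 1.49, 2.47, 2.95 and 2.98. In the arginine pair both enzymes were higher, by 1.33 and 0.50 in Myc310. The exceptions were the phenylalanine pairs, Farsa with Fars2 in the 4 lines and Farsb with Fars2 in Myc310, LM1 and LM1-LM.

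Synthetases also fall into class I and class II by the fold of their catalytic domain. Of the 10 class I cytosolic enzymes, 9 were higher and Qars was lower in each line, and of the 10 class II cytosolic and dual enzymes 7 were higher and Farsa and Kars lower. The 11 members of the multi-synthetase complex, which holds 8 enzymes on the scaffolds Aimp1, Aimp2 and Eef1e1, split into 5 higher and 3 lower in MYAZ16.1e, LM1 and LM1-LM and 6 and 3 in Myc310, where 26.6% to 36.5% of all genes were higher and 27.1% to 35.9% lower over the 4 lines. Aimp2 was lower in all 4 lines, from 72.4 ± 1.74 to 50.9 ± 2.8 CPM in Myc310 and by 0.32 to 0.52 on the log2 scale. It shares 487 exon bases on the other strand with Eif2ak1, whose log2 fold changes were −0.30, −0.65, −0.75 and −0.74, and the part of shared reads was not tested. Aimp1 was called higher in Myc310 (0.13) and in no other line, and Eef1e1 was not called, with 77.5 ± 0.792 and 76.8 ± 1.37 CPM in LM1. With upper-quartile scaling both were called lower in LM1-LM (−0.09 and −0.13), as were Hars2 and Tars2.

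Other genes of the pathway were read from lists. These lists were chosen with earlier results of these data known, so their counts are no independent check. All 24 listed ATF4 targets outside the family were higher in MYAZ16.1e, Myc310 and LM1, where 26.6% to 35.8% of all genes were. In LM1-LM, where 36.5% of genes were higher, 23 of the 24 targets were, and Stc2 was not called. Among them Chac1, which degrades glutathione, had log2 fold changes of 5.94, 5.81, 6.41 and 6.31, and Trib3, a pseudokinase that feeds back on ATF4, had 4.90, 3.98, 5.08 and 4.98. Atf4 itself had 1.65, 2.16, 2.52 and 2.61, while Eif2ak4, the gene of GCN2, had −0.25, −0.53, −0.84 and −0.92. Of 10 genes for other steps of tRNA charging, 2 were higher in each line, where 26.6% to 36.5% of all genes were higher, and 4, 4, 6 and 6 were lower, where 27.1% to 35.9% of all genes were. The higher genes were Prorsd1 (0.55, 0.81, 1.00 and 1.09) and Sepsecs (0.38, 0.84, 0.78 and 0.71), the enzyme that completes selenocysteine on its tRNA. Pstk, the kinase that acts before Sepsecs on the same tRNA, was lower (−0.21, −0.47, −0.81 and −0.89), as were Gatc and Aarsd1 in all 4 lines. Of 5 mitochondrial elongation factors, 1 was higher in each line and 2, 4, 4 and 4 were lower, among them Tufm, which brings charged tRNA to the mitochondrial ribosome (−0.42, −0.65, −0.62 and −0.65). The 6 cytosolic elongation factors were mixed, with 2, 3, 2 and 3 higher and 2, 3, 3 and 3 lower, beside the same 26.6% to 36.5% and 27.1% to 35.9% of all genes.

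Promoter windows show whether the element bound by ATF4 and C/EBP partners is written near the start of members that rose. RefSeq windows (GRCm38.p6, 250 bases before to 50 after the start) were matched for 31 of the 41 members, and both strands were searched for TGATGNAA, the core of the amino acid response element. It was found in 5 of the 31 members, Aars, Gars, Iars, Tars and Yars, all of which were higher in the 4 lines, and in none of the 14 mitochondrial enzymes with a window. Over all windows 3.97% of 32851 held it, or 4.51% of 27025 genes. CACGTG, the E-box, lay in windows of Aars, Ears2, Farsb, Iars and Tars and in 7.15% of all windows. A match is a run of letters and not a measured binding site. Members without a matched window include Cars, Wars1, Hars, Lars, Nars, Rars, Vars, Hars2 and Pars2. The 5 windows with the core are printed so that the letters found can be read, 5′ to 3′ on the gene's strand, with capitals marking the core on either strand:
Aars promoter, chr8:111033592-111033891, plus strand: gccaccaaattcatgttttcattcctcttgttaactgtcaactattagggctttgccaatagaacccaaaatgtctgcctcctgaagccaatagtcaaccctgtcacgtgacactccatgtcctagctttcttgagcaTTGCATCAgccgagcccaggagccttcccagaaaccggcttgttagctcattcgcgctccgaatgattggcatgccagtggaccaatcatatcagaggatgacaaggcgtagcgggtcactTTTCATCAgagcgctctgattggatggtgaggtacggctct
Gars promoter, chr6:55037751-55038050, plus strand: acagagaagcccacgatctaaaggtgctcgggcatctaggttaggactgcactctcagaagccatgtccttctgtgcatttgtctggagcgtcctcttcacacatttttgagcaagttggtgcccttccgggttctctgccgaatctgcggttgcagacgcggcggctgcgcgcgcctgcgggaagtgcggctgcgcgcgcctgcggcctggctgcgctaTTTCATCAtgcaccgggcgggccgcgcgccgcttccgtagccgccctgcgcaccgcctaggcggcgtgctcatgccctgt
Iars promoter, chr13:49681880-49682179, plus strand: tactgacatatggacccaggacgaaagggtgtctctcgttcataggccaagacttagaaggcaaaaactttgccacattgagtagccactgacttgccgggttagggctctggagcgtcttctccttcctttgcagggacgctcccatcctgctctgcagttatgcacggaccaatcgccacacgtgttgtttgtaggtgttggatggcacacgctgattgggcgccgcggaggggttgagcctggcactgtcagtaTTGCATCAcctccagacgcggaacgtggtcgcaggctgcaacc
Tars promoter, chr15:11399609-11399908, minus strand: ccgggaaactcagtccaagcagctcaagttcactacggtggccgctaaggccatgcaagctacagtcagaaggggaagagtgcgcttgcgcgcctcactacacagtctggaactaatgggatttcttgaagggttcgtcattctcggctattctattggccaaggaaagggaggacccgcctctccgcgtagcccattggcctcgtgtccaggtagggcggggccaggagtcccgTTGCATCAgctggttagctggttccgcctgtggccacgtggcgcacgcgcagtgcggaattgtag
Yars promoter, chr4:129189653-129189952, plus strand: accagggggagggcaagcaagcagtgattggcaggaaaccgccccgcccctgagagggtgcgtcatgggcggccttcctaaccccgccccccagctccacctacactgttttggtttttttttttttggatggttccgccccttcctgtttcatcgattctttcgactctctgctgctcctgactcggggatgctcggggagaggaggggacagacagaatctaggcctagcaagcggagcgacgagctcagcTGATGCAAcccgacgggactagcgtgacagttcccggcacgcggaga

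Aars holds the core at 2 places, the first starting 112 bases before the RefSeq start of the window, which lies downstream of the GENCODE start of Aars given above, written TTGCATCA, and the second written TTTCATCA. In Tars the same letters TTGCATCA begin 15 bases before the start and in Iars 8 bases after it. Gars has TTTCATCA from 30 bases before the start, and Yars has the plus-strand form TGATGCAA from 4 bases after it. Of the 10 members with a window that were higher in all 4 lines, 5 held the core, and of the 7 with a mean log2 fold change over 1 the same 5 did. Those without it were Sars and Mars1, which rose by 1.37 to 2.12 and by 1.12 to 1.49 on the log2 scale, and Eprs, Farsb and Rars2, with mean log2 fold changes of 0.88, 0.26 and 0.29. Of the 24 members with a window and a mean of 1 or less, 0 held it.

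Whether the response to deprivation differed between lines was tested as an interaction in the same model. These comparisons share control and deprived cultures and are given side by side. Against MYAZ16.1e, the change was more positive for 15 members and more negative for 10 in Myc310 (19.8% and 20.4% of genes), for 18 and 11 in LM1 (26.9% and 25.3%) and for 17 and 14 in LM1-LM (28.4% and 26.4%). Of the 17 members higher in all 4 lines, Farsb rose less in LM1 than in MYAZ16.1e, and Farsb and Rars2 rose less in LM1-LM. From the same 17, 14 rose further in Myc310 than in MYAZ16.1e, 15 in LM1 and 14 in LM1-LM. Of the 11 lower in all lines 8, 8 and 9 fell further. The same was called for 51.6%, 65.4% and 66.6% of the 2584 genes higher in all 4 lines and for 55.3%, 62.8% and 63.6% of the 2548 genes lower in all 4. LM1 against Myc310 had 13 more positive and 5 more negative members (14.5% and 9.96% of genes), and without replicate 1 or replicate 3 the second count was 3. LM1-LM against LM1 had 0 in either direction by edgeR (0.328% and 0.44% of genes), with 0 and 4 at an unadjusted p under 0.05 and 0 by DESeq2. With upper-quartile scaling the share of more positive calls among all genes went from 49.2% to 42.0% for Myc310 against MYAZ16.1e, from 51.5% to 41.0% for LM1 against MYAZ16.1e, from 51.7% to 41.6% for LM1-LM against MYAZ16.1e and from 59.3% to 42.7% for LM1 against Myc310. The members then gave 15 and 11, 16 and 14, 14 and 16, and 10 and 6, and no member took the opposite call.

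**Figure D4:**
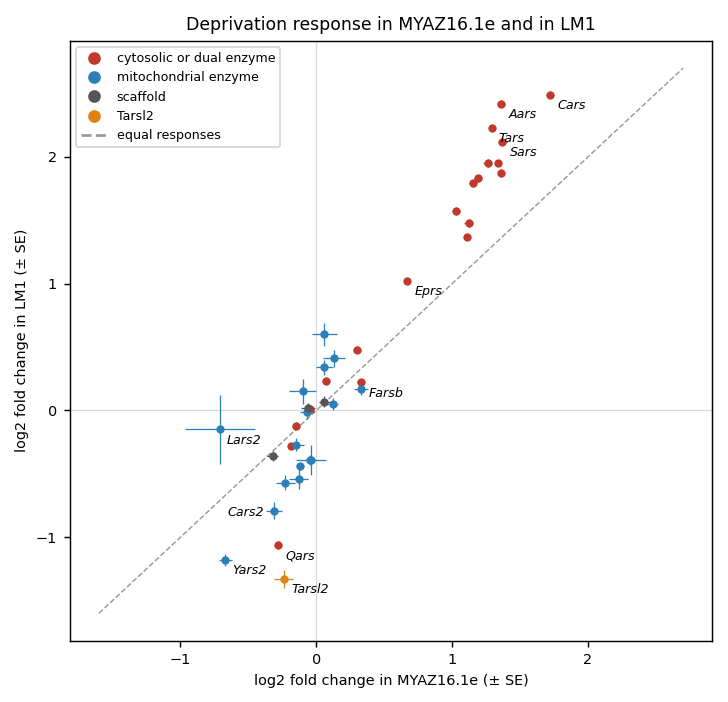
Log2 fold change under deprivation of 40 members in MYAZ16.1e (horizontal) and LM1 (vertical), with bars of 1 standard error and a dashed line of equality. Cars (1.72 and 2.49) and Aars (1.36 and 2.42) lie above the line and Tarsl2 (−0.24 and −1.33) below it.

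Aars, Tars and Tarsl2 had the largest differences of response. For Aars the differences of Myc310, LM1 and LM1-LM from MYAZ16.1e were 0.65, 1.05 and 1.05 (SE 0.04), with adjusted p of 1.7e-14, 4.74e-20 and 3.4e-20. In Myc310 the deprived level of Aars, 841 CPM, was close to the 817 CPM of MYAZ16.1e, and the control levels were 207 and 316 CPM. Tars differed from MYAZ16.1e by 0.61, 0.94 and 0.95 (SE 0.03, adjusted p of 1.07e-14, 1.23e-19 and 4.33e-20). Tarsl2 differed by −0.62, −1.10 and −1.29 (SE 0.10, adjusted p of 7.36e-06, 1.63e-10 and 4.74e-12). Between LM1 and Myc310 the differences were 0.41 for Aars (adjusted p = 1.67e-09), −0.48 for Tarsl2 (adjusted p = 4.14e-04) and −0.33 for Rars2 (SE 0.07, adjusted p = 8.43e-04), whose rise was 0.50 in Myc310 and 0.17 in LM1.

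In control medium the subtypes were compared over 13795 genes with the 9 libraries of the MYAZ lines as reference. Myc310 had 11 higher and 5 lower members (23.8% and 27.1% of genes), the LM lines 18 and 6 (30.3% and 30.5%) and the LM-LM lines 19 and 6 (30.5% and 32.3%), so the higher counts of LM and LM-LM stood above the share of all genes, the higher count of Myc310 was near it, and the lower counts stood below it. Cultures of a line are not separate lines. With counts summed per line the calls were 2 and 0, 7 and 1, and 8 and 2, where 4.72% and 4.2%, 11.3% and 12.4%, and 12.8% and 13.6% of 16017 genes were called. Myc310 is then 1 sample, which the test assumes to vary like the lines of the other subtypes, so its values over line sums have no replicate check of their own here and for the members below. The member sums of CPM differed little, at 4433.4 to 4572.6 for cytosolic and dual enzymes in the MYAZ lines and 4498.9 to 5042.1 in the other 7 lines.

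Tarsl2, Eef1e1 and Nars2 were higher, and Aars and Aars2 lower, in each of the 3 comparisons. Tarsl2 ran from 7.63 to 15.8 CPM (median 9.27) in the 9 MYAZ libraries, 28.5 to 29.9 CPM in Myc310, 19.7 to 29.6 CPM (median 24.7) in LM and 15.9 to 28.8 CPM (median 21.5) in LM-LM. All MYAZ libraries thus lay below all others, with MYAZ16.1e, at a line mean of 15.7 CPM, nearest to them. Log2 fold changes were 1.39 ± 0.19, 1.12 ± 0.15 and 0.96 ± 0.15 (SE), with adjusted p of 6.7e-07, 1.35e-07 and 1.71e-06. Over line sums the adjusted p was 0.0181 in LM and 0.0285 in LM-LM, and 0.0443 for the single line Myc310. Eef1e1, a scaffold of the multi-synthetase complex (chromosome 13, 38644207 to 38659058, minus strand), ran from 45.8 to 54.8 CPM (median 49.9) in MYAZ, 75.7 to 76.2 CPM in Myc310, 75.1 to 79.2 CPM (median 77.7) in LM and 74.3 to 98.1 CPM (median 80.6) in LM-LM. Its differences of 0.59 ± 0.07, 0.62 ± 0.05 and 0.74 ± 0.05 had adjusted p of 2.02e-08, 4.28e-12 and 8.75e-14, and over line sums of 0.00259 in LM and 0.00119 in LM-LM, and 0.0276 for the single line Myc310.

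**Figure D5:**
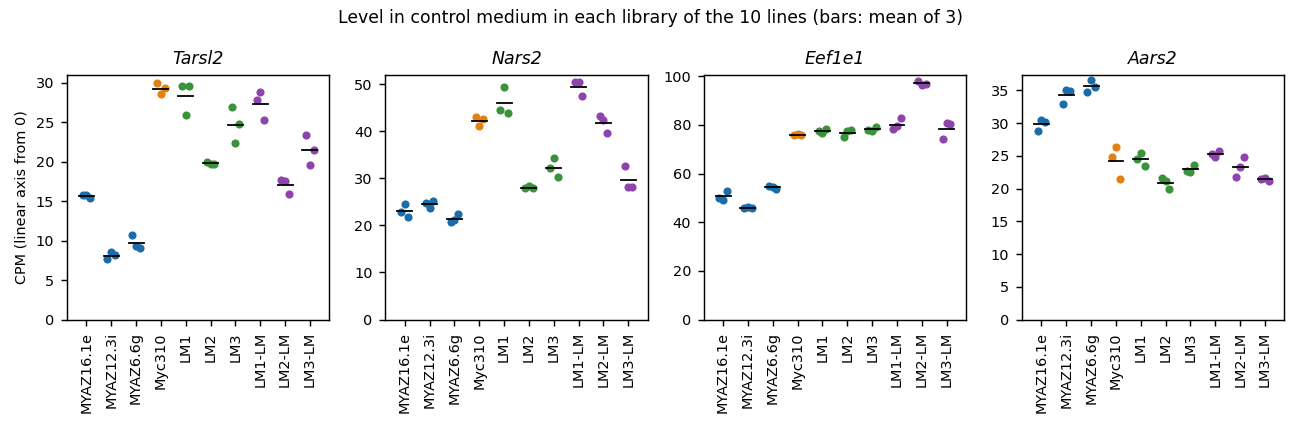
CPM of Tarsl2, Nars2, Eef1e1 and Aars2 in the control cultures of the 10 lines (linear axes from 0), 3 cultures a line with a bar at their mean. Tarsl2, Nars2 and Eef1e1 lie lower, and Aars2 higher, in the 3 MYAZ lines than in the other 7.

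Nars2, the mitochondrial asparagine enzyme (chromosome 7, 96951505 to 97064758, plus strand), had line means of 21.4 to 24.6 CPM in MYAZ, 42.3 CPM in Myc310, 28.0 to 46.0 CPM in LM and 29.6 to 49.5 CPM in LM-LM. Its differences were 0.87 ± 0.16, 0.62 ± 0.12 and 0.79 ± 0.12, and over line sums the first and second of these lost the call, at 0.90 and 0.64. Aars2, the mitochondrial alanine enzyme (chromosome 17, 45506841 to 45520843, plus strand), had line means of 29.8 to 35.6 CPM in MYAZ, 24.2 CPM in Myc310, 20.9 to 24.5 CPM in LM and 21.4 to 25.3 CPM in LM-LM. It differed by −0.46 ± 0.08, −0.55 ± 0.06 and −0.53 ± 0.06, and over line sums by −0.44 (adjusted p = 0.122), −0.53 (0.00961) and −0.51 (0.0106). Aars had line means of 316 to 337 CPM in MYAZ, 207 CPM in Myc310, 221 to 300 CPM in LM and 231 to 259 CPM in LM-LM. The differences of Aars were −0.66, −0.35 and −0.45, of which the first and second lost the call over line sums, at −0.64 and −0.33.

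Tars was lower in Myc310 (−0.67, adjusted p = 0.00318, lost over line sums at −0.64) and in LM-LM (−0.31, adjusted p = 0.0303). Its LM-LM libraries, 122 to 206 CPM, overlapped the MYAZ ones, 173 to 223 CPM, and the LM-LM call was lost without LM1-LM, LM2-LM, MYAZ12.3i or MYAZ6.6g and without replicate 1, 2 or 3. Tars2 was lower in LM (−0.27, adjusted p = 7.28e-05), with 42.1 to 52.7 CPM against 51.8 to 66.1 CPM and overlapping libraries, and this call too was lost over line sums (−0.25). An exact two-sided permutation test over line means, 3 lines against 3, gave p = 0.1, the smallest it allows, for Tarsl2, Eef1e1, Nars2, Aars2 and Aars in LM and in LM-LM and for Tars2 in LM, and p = 0.3 for Tars in LM-LM. The 6 leukocyte markers also differed between subtypes, with summed group means of 4.90 to 5.92 CPM in the MYAZ lines, 9.95 CPM in Myc310, 9.70 to 17.3 CPM in LM and 13.2 to 17.7 CPM in LM-LM. Cd68 made up most of that sum, while Ptprc and Lyz2 had group means of at most 0.0909 CPM.

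MYAZ12.3i-NDI1 was compared with MYAZ12.3i in control medium over 12841 genes. Each side is a single line, so an effect of NDI1 and other differences between the lines cannot be told apart. By edgeR 14 members were higher and 0 lower (8.14% and 9.27% of genes), with 17 and 2 at an unadjusted p under 0.05 and 13 and 0 in DESeq2. Without replicate 1 or replicate 2 the count of higher members was 7, where 382 of 12937 and 436 of 12906 genes were higher. The 14 comprised 10 cytosolic or dual enzymes, the mitochondrial Aars2 and Tars2, and the scaffolds Aimp1 and Eef1e1, and none reached 2-fold. Cars had 87.5, 86.4 and 87.6 CPM in the parent and 104, 104 and 108 CPM with NDI1 (0.27 ± 0.03, adjusted p = 1.5e-04). Hars had 123, 126 and 132 CPM and 150, 152 and 144 CPM (0.22 ± 0.03, adjusted p = 5.24e-04), and Tars2 had 56.7, 53.0 and 53.9 CPM and 63.9, 63.8 and 63.1 CPM (0.22 ± 0.04, adjusted p = 0.00214). For these 3 genes the NDI1 cultures lay above the parent without overlap, and the summed level of the 20 cytosolic and dual enzymes was 4673.6 ± 39.8 CPM with NDI1 and 4473.1 ± 18.6 CPM in the parent (SD, n = 3).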

How the data were processed

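RNA sequencing (NEBNext Ultra II Directional, poly(A) selection, 100-base paired-end reads) was analysed from 45 libraries in 15 groups. The authors aligned reads with STAR and counted them with RSEM in nf-core RNAseq 3.10.1 on GRCm38. The table they deposited holds whole-number counts that are not normalized, and the submitters' notes also name DESeq2 1.38.3 and R 4.2.2. The aligner's and counter's versions and the strand setting are not given in the sources used here. Rows without a symbol held 1.18% of counts and took part in library sizes and tests by their identifier.

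Groups came from the labels. Counts were tested with edgeR 4.0.16 (R 4.3.3): TMM scaling, filterByExpr, quasi-likelihood tests and Benjamini-Hochberg adjustment over all genes tested, at 0.05. Deprivation and its differences between lines came from 24 libraries in 8 groups, subtypes from 30 control libraries, and NDI1 from 6. Replicates of a line were treated as samples, with counts summed per line and limma 3.58.1 voom (line as random block) as alternatives. Others were RLE or upper-quartile scaling, no filter, DESeq2 1.42.0, a replicate block, 6 libraries of one line, NDI1 with 33 libraries, and leaving out replicates or lines. Leaving out 2 Lars2-high libraries was added after seeing the data. CPM were computed after TMM over 45 libraries, and transcript lengths and exon overlaps came from GENCODE mouse release 21. Copies were searched with BLAST 2.17.0 (300 bases, 95% identity): Iars has a copy, Gm4849, with a median count of 1. The fits were tested on simulated counts.

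Values in each of the 24 libraries of the 4 deprived lines were printed for Cars, Cars2, the 6 members with the highest and the 3 with the lowest mean log2 fold change under deprivation. Among members with an adjusted p under 0.05, the 3 largest response differences were named, and in subtypes and NDI1 the 3 largest each way. Values of 1 member and 1 marker are not reported here singly, though the counts and sums include them. The members and lists were chosen with earlier results of these data known. No share of a single library is reported, so no counting interval is given.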

Additional observations from a re-analysis of the deposited data

Results flagged for a closer look

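The response to deprivation differed between lines by an interaction test in edgeR for the 12 results given here, each with 3 cultures a group. For Aars the difference was 0.65 for Myc310 against MYAZ16.1e, 1.05 for LM1 against MYAZ16.1e, 1.05 for LM1-LM against MYAZ16.1e and 0.41 for LM1 against Myc310. For Tars it was 0.61, 0.94 and 0.95 in the comparisons with MYAZ16.1e. Tarsl2 gave −0.62, −1.10 and −1.29 against MYAZ16.1e and −0.48 for LM1 against Myc310, and Rars2 gave −0.33 for LM1 against Myc310. Control levels differed between these lines too. Tarsl2 had 15.7 CPM in control MYAZ16.1e and 29.2 CPM in control Myc310, and Aars had 316 and 207 CPM.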

How the results depend on the processing

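The counts over all 41 members called under deprivation stayed within 1.5 times of those reported under every alternative run. The cytosolic and dual enzymes had 15 to 16 higher in each line and 2 to 3 lower, and the mitochondrial ones 1 to 6 higher and 5 to 11 lower. Higher mitochondrial enzymes went from 2 to 1 in MYAZ16.1e with no filter, without replicate 1, 2 or 3 and without both libraries high in Lars2, and from 5 to 3 in Myc310 without replicate 3. Subtype counts moved. Summed per line they were 2 higher and 0 lower for Myc310 (1 line, assumed to vary like the others), 7 and 1 for LM, and 8 and 2 for LM-LM. With voom and the line as a random block they were 7 and 2 for Myc310, where 1532 and 1287 of 13795 genes were called. For LM they were 11 and 3, where 2363 and 2396 genes were. With no filter LM-LM had 3 lower, where 4886 of 25828 genes were. Leaving out 1 replicate or line gave 3 to 6 more negative members for LM1 against Myc310 (3 without replicate 1 or 3) and 3 to 7 lower for LM-LM (3 without replicate 3). For NDI1 it gave 7 to 11 higher, where 382 to 592 of all genes were higher. The voom loss and the summed-line loss have fewer independent units by construction, and the cause of the no-filter change was not tested. Lars2 in Myc310 was −0.63, and ranged from −0.91 without replicate 3 to 0.00 (adjusted p = 0.998) without replicate 2. In DESeq2 its adjusted p was 0.0767 in MYAZ16.1e and 0.126 in Myc310. The Lars2 adjusted p in MYAZ16.1e was 0.0245 with all cultures and 0.526 without replicate 1. With no filter it was 9.6e-78 although control cultures ran from 84.0 to 209 CPM. That value is therefore not read as a measure of the spread between cultures. Deviations of same-numbered cultures correlated within ±0.1 and the numbers mark no shared origin in the labels, so the replicate block is no pairing. With the replicate block MYAZ16.1e had 17 higher and 12 lower members and the other lines kept their counts. The lowest count of a member was 116, and the effect of depth on the calls was not tested.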

Other observations

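Exosc6, whose exons share 1326 bases with Aars on the same strand, also differed between media. Its group means were 35.1 CPM in control MYAZ16.1e, 33.2 CPM in control Myc310, 29.4 CPM in control LM1 and 33.4 CPM in control LM1-LM, and each of the 12 deprived libraries had 0 counts. In the lines sampled in control medium alone its group means were 19.9 to 28.1 CPM. The summed fibroblast markers were 60.6 CPM in control and 28.2 CPM in deprived LM1-LM, 1.87 and 2.75 CPM in Myc310, and 9.13 and 11.2 CPM in MYAZ16.1e, with a fall in LM1 as well (10.5 to 11.4 CPM in deprived and 15.1 to 17.6 CPM in control cultures), and their part in the deprivation results was not tested.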
